A study of Rattus norvegicus with 4 samples.

Results

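The genes described here are the receptors that bind the constant part of antibodies and those that carry antibodies across epithelium, in the lining of the rat middle ear. The expression table was searched, in any letter case, for 7 symbols: FCGR1A, FCGR2A, FCGR2B and FCGR3A, which bind IgG on leukocytes, FCER1G, the signalling chain of activating Fc receptors, FCGRT, the neonatal Fc receptor, and PIGR, the polymeric immunoglobulin receptor. Of the 7 symbols, 3 were found, each in 1 feature of the 27832 in the table: Fcer1g, Fcgrt and Pigr. The other 4 symbols had no feature of that name and were skipped, and the rat IgG receptors appear under the names Fcgr1, Fcgr2 and Fcgr3, which are described as related genes.

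Each of the 4 conditions is represented by 1 library, made from poly(A) RNA of scraped middle ear mucosa of Sprague-Dawley (SD) rats. The media library came from vehicle controls given medium only. The MRSA library came from ears given methicillin-resistant Staphylococcus aureus, the PA library from ears given Pseudomonas aeruginosa, and the MRSA + PA library from ears given the mixed culture. The bacteria were suspended in TSB, the 50 µL dose held 10000000 CFU and was injected into the right middle ear through the tympanic membrane, and tissue was taken after 1 week in every group. The treatment label names MRSA for every sample, so the groups were taken from the sample titles. The age of the rats and the number of rats behind each library are not given in the labels. The mucosa is a mixture of epithelium, stroma, vessels and leukocytes, so in these bulk samples more cells of a type and more RNA per cell cannot be told apart. With 1 library per condition there is no replicate error and no test was made. Differences below are between 1 library and another.

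Antibodies bound to bacteria are read by leukocytes through Fc receptors. FCER1G forms a dimer that carries immunoreceptor tyrosine-based activation motifs, and most activating IgG receptors and the high-affinity IgE receptor need it for assembly at the surface and for signalling through SYK. FCGR2B is the inhibitory IgG receptor and recruits the phosphatase SHIP1 (INPP5D). FCGRT pairs with beta-2-microglobulin (B2M), binds IgG in acidic endosomes and returns it to the cell surface, which protects IgG from breakdown. PIGR sits on the basolateral side of mucosal epithelium, takes up dimeric IgA and pentameric IgM that hold the J chain, and releases them into the lumen as secretory antibody.

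The promoters of Pigr and Fcgrt are shown because the levels of these 2 antibody carriers differed in pattern, as described below. Each is the 250 bases before the start of 1 RefSeq transcript in GRCr8, read 5′ to 3′ on the gene's strand, and capitals mark matches to the motifs named below. Positions count from the first base of a match back to the start. The Pigr sequence is chr13:44850932-44851181 on the + strand and the Fcgrt sequence is chr1:104720027-104720276 on the - strand.
Pigr: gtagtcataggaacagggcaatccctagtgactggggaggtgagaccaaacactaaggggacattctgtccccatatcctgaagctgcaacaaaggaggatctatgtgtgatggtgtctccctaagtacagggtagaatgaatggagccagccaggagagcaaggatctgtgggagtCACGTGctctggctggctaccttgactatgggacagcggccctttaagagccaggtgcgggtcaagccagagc
Fcgrt: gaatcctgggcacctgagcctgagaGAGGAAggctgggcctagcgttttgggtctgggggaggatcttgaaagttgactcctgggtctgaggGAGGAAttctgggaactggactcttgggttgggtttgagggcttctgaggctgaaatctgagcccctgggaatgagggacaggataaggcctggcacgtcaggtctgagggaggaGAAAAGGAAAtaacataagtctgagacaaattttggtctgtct
Each motif was searched on both strands and was chosen after the levels were known. The Pigr window held 1 E-box, CACGTG, the site to which upstream stimulatory factors (USF1 and USF2) can bind, at 73 bases before the start. It held no match to the other letters searched, which were GAGGAA (ETS core), TGANTCA (AP-1), TTC and GAA 4 bases apart (STAT6), GAAA and GAAA 2 bases apart (IRF) and GGGA, any base, TT, any base, CC (NF-kB). The Fcgrt window held no E-box. It held GAGGAA at 225 and at 158 bases before the start, and the IRF letters at 43 bases. Of 33360 rat promoter windows of the same length, 5.61% held the E-box, 23.3% held GAGGAA and 3.41% held the IRF letters. AP-1 letters were found in 6.35%, STAT6 letters in 6.24% and NF-kB letters in 0.974% of the windows. GC content was 54.0% for Pigr and 53.2% for Fcgrt, and the median of all windows was 51.6%. Other transcripts of both genes start further upstream, so the windows lie partly inside the annotated genes. A match describes letters only.

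Levels are given in FPKM, fragments scaled to transcript length and library size, so levels of different genes are compared per length. Before each log2 ratio of 1 library to another, here called the log2 difference, 0.1 FPKM was added to both values. Features entered a count when their average over the 4 libraries reached 1 FPKM. All 3 members passed this filter, as did 15944 features in all. FPKM does not give the number of fragments behind a value, so the depth behind each level is unknown and no interval was set around it. The libraries held 21504 to 21898 features above 0 FPKM, and the scaling factors by the median of ratios ran from 0.970 in media to 1.02 in PA.

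Fcer1g was the most abundant of the 3 members in every library, and it was highest after MRSA. The feature lies on chr13:94228761-94233486 on the - strand. Its level was 182 FPKM in media, 563 after MRSA, 409 after PA and 390 after MRSA + PA. All 3 inoculated libraries stood above media, with folds of 3.09 after MRSA, 2.25 after PA and 2.14 after MRSA + PA. The log2 differences from media were 1.63, 1.17 and 1.10 in that order. A larger difference from media was found for 3.97% of all features after MRSA, 8.26% after PA and 6.86% after MRSA + PA. Among the inoculated libraries, PA and MRSA + PA lay close together, with a log2 difference of -0.07 for MRSA + PA minus PA. MRSA was 1.38-fold above PA and 1.44-fold above MRSA + PA.

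Fcgrt was at nearly the same level in all 4 libraries. Its feature lies on chr1:102151853-102162094 on the - strand. It was at 114 FPKM in media, 102 after MRSA, 108 after PA and 111 after MRSA + PA. The highest of these values was 1.12 times the lowest. The log2 differences from media were -0.16 after MRSA, -0.08 after PA and -0.04 after MRSA + PA, against medians over all features of 0.0482, 0.0718 and 0.051. The sign in PA and in MRSA + PA turned with the scaling, with ranges over the alternatives of -0.15 to 0.09 and of -0.10 to 0.14.

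Of the 3 members, Pigr differed most between the inocula. The feature lies on chr13:52652682-52680758 on the + strand. It was at 8.27 FPKM in media, 19.1 after MRSA, 35.2 after PA and 9.16 after MRSA + PA. PA was the highest library, MRSA was next, and MRSA + PA lay near media. The folds over media were 2.303 with MRSA, 4.26 with PA and 1.11 with the mixture, which are log2 differences of 1.19, 2.08 and 0.14. A larger difference from media was found for 6.70% of features after MRSA, for 3.31% after PA and for 41.2% after MRSA + PA. The mixed inoculum was set directly against each single species, without the media library. Pigr was 3.84-fold higher in PA and 2.08-fold higher in MRSA than in MRSA + PA, with log2 differences of -1.93 for MRSA + PA minus PA and -1.05 for MRSA + PA minus MRSA. Between the single species, PA was 1.85-fold above MRSA.

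**Figure D1:**
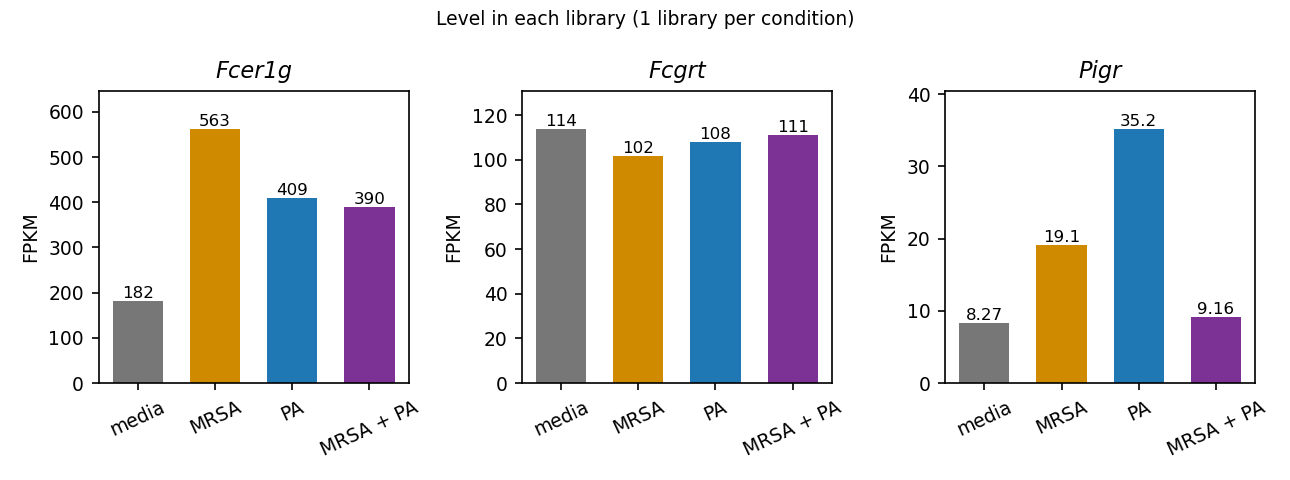
Bars give the FPKM of Fcer1g, Fcgrt and Pigr (vertical axes, each starting at 0) in the media, MRSA, PA and MRSA + PA libraries, 1 library per condition and therefore no error bars. Fcer1g stands at 182 FPKM in media and at 390 to 563 in the inoculated libraries, Fcgrt lies between 102 and 114 throughout, and Pigr is highest at 35.2 in PA and lies at 9.16 in MRSA + PA.

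At a threshold of 2-fold above media, Fcer1g and Pigr were higher in MRSA, 2 of 3 members, where 8.47% of all features were. The same 2 of 3 members were higher in PA, against 10.0% of all features. In MRSA + PA, Fcer1g alone passed, 1 of 3 members, against 7.78%. No member was 2-fold lower than media in any of the 3 libraries, and 4.95%, 7.80% and 7.83% of features were. These comparisons share the media library. Between MRSA and PA no member was 2-fold apart, while 5.03% of features were higher and 3.54% lower in MRSA. Pigr alone was 2-fold lower in MRSA + PA than in MRSA, against 5.73% of features, and than in PA, against 4.27%. No member was 2-fold higher in MRSA + PA than in either single species, where 1.61% and 2.50% of features were. These shares of all features also stand beside the counts of the lists below. The calls for Pigr near the threshold depended on scaling: under equal FPKM sums over all features its log2 difference from media was 0.93 in MRSA, MRSA minus PA was -1.13 and MRSA + PA minus MRSA was -0.61.

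The IgG receptors under their rat names lay above media too. The names Fcgr1, Fcgr2 and Fcgr3, in any letter case, are carried by 6 features, of which 5 passed the filter. All 5 were at least 2-fold higher after MRSA, 4 after PA and all 5 after MRSA + PA, beside 8.47%, 10.0% and 7.78% of all features. The 6 features summed to 106 FPKM in media, 292 after MRSA, 239 after PA and 248 after MRSA + PA, with folds of 2.74, 2.25 and 2.32. Fcer1g, at 3.09, 2.25 and 2.14, stood close to these summed folds in PA and MRSA + PA and above the summed fold in MRSA. The single features past the filter ran in MRSA from 2.04-fold for Fcgr1 to 3.64-fold for the most abundant Fcgr3 feature, so on both sides of Fcer1g.

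Fcgr1 on chr2:217916296-217926288, the older RefSeq name of Fcgr1a, encodes the high-affinity IgG receptor of monocytes and macrophages. It was at 25.6 FPKM in media, 52.2 after MRSA, 64.8 after PA and 53.5 after MRSA + PA. PA was the highest library and MRSA was at 2.04-fold over media, close to the threshold. Under equal FPKM sums over all features its log2 difference in MRSA was 0.76 in place of 1.03. With median-of-ratios scaling it was 0.97, and both values are below 2-fold.

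The feature Fcgr2 on chr13:93924704-94068497 carries the older RefSeq name of Fcgr2b, the inhibitory receptor, and is assigned to that gene by name alone. It was at 31.2 FPKM in media, 70.2 after MRSA, 70.1 after PA and 72.3 after MRSA + PA. The 3 inoculated libraries were within 1.03-fold of each other, each above media by a log2 difference of 1.17 to 1.21. Under equal FPKM sums over all features the difference in MRSA was 0.90, below 2-fold. Its span of 143794 bp overlaps Fcrla, an FCGR3 feature on the + strand and a feature named for HSP70. The library kit does not mark strand, so reads of such partners may be shared.

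Fcgr3, which RefSeq lists as an older name of Fcgr2a, encodes an activating low-affinity IgG receptor, and 4 features carry that name in any letter case. The most abundant, on chr13:95687142-95722475, was at 29.6 FPKM in media, 108 after MRSA, 58.9 after PA and 73.0 after MRSA + PA. MRSA stood highest, at 3.64-fold over media and 1.83-fold over PA. PA lay at 1.99-fold over media, just under the threshold. A neighbouring feature on chr13:95665415-95673365 was at 15.9, 47.0, 31.9 and 37.8 FPKM, given in that library order. The + strand FCGR3 feature inside Fcgr2 was at 4.27, 14.5, 13.5 and 11.0 FPKM. In GRCr8, Fcgr2a lies on the - strand and Fcgr3a on the + strand of the same chromosome. By strand this feature may therefore belong to Fcgr3a, and its name does not settle which gene it is. Fcgr2a starts beyond Fcgr3a in GRCr8, and the - strand Fcgr2 feature likewise starts beyond this + strand feature. The Fcgr2 feature may therefore include Fcgr2a, an activating receptor. The last Fcgr3 feature was listed at 0 in all libraries but PA, where it was at 0.061 FPKM. MRSA was the highest library for the 3 features that passed the filter. RefSeq holds near copies of this gene in the rat, so how reads were divided among these features is uncertain.

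The ratio of Fcgr3 to Fcgr2 was taken within each library because library scaling does not enter it. By name these are an activating receptor and the inhibitory one. Because the Fcgr2 feature may include Fcgr2a, the ratio does not separate activating from inhibitory receptors. It was 0.949 in media, 1.53 after MRSA, 0.841 after PA and 1.01 after MRSA + PA. MRSA lay 1.62-fold above media, and the other inoculated libraries were at 0.887-fold and 1.06-fold. The ratio of Fcgr2 to Fcgr1 ran from 1.08 in PA to 1.35 in MRSA + PA. Fcer1g over Fcgr1 was 7.12 in media, 10.8 after MRSA, 6.31 after PA and 7.29 after MRSA + PA, so the shared chain was further above media in MRSA than Fcgr1 was. Fcer1g over Fcgr3 ran from 5.23 in MRSA to 6.94 in PA, and Fcer1g over Fcgr2 from 5.39 in MRSA + PA to 8.02 in MRSA.

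The list of Fc receptors other than the members held 20 genes, of which 14 were in the table and 11 passed the filter. It includes Fcgr1, Fcgr2 and Fcgr3, so its counts overlap those given above for the IgG receptors. At least 2-fold above media were 7 of the 11 after MRSA, 5 after PA and 6 after MRSA + PA, beside 8.47%, 10.0% and 7.78% of all features. None of the 11 was 2-fold lower. The medians of their log2 differences were 1.03, 0.99 and 1.06, beside medians of all features of 0.0482, 0.0718 and 0.051. FCRL2, an Fc receptor-like gene, was the most abundant of them, at 39.4 FPKM in media, 110 after MRSA, 132 after PA and 98.0 after MRSA + PA. Its log2 differences from media were 1.48, 1.75 and 1.31. Fcrl5, an Fc receptor-like protein of B cells and plasma cells, was at 1.63, 3.42, 6.74 and 3.05 FPKM, and Fcrlb at 0.268, 0.887, 2.79 and 0.945 FPKM. For Fcrl5, PA was the highest library, and MRSA + PA was below PA by a log2 difference of -1.12. Fcrlb reached the filter only through its level in PA, so its high value there and its place in the counts follow in part from the filter.

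The following receptors were named after their values were seen. Fcrla was at 3.72, 9.41, 6.40 and 8.24 FPKM (media, then MRSA, PA and MRSA + PA), and its feature overlaps Fcgr2 on the same strand. The IgE receptor genes, which with Fcer1g form the high-affinity receptor of mast cells and basophils, did not follow it. Fcer1a, the IgE-binding chain, was at 1.81, 2.44, 2.12 and 1.94 FPKM, and a second feature of that name was listed at 0 in all 4 libraries. Ms4a2, the beta chain, was at 2.67, 2.56, 1.502 and 2.25 FPKM. All values of both genes in the inoculated libraries lay within 2-fold of media. Trim21, a cytosolic antibody receptor, was at 7.87, 10.0, 11.2 and 10.4 FPKM, also within 2-fold. The genes Fcer2, Fcrl1 and Fcamr were below 1 FPKM on average. FCGR4, FCAR, FCRL3, FCRL4, FCRL6 and FCRLS had no feature of that name.

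Pigr lies on chromosome 13 between 2 other immunoglobulin receptor genes that bind IgM. Fcamr, a receptor for IgA and IgM, is on chr13:52628071-52641504 and Faim3 (the IgM receptor, FCMR) on chr13:52691434-52705666, all on the + strand. Neither neighbour had the pattern of Pigr. Fcamr was at 1.23 FPKM in media, 0.765 after MRSA, 0.939 after PA and 0.394 after MRSA + PA, and Faim3 at 11.1, 8.495, 6.73 and 7.58 FPKM. Media was the highest library for both genes, and PA was the lowest for Faim3.

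**Figure D2:**
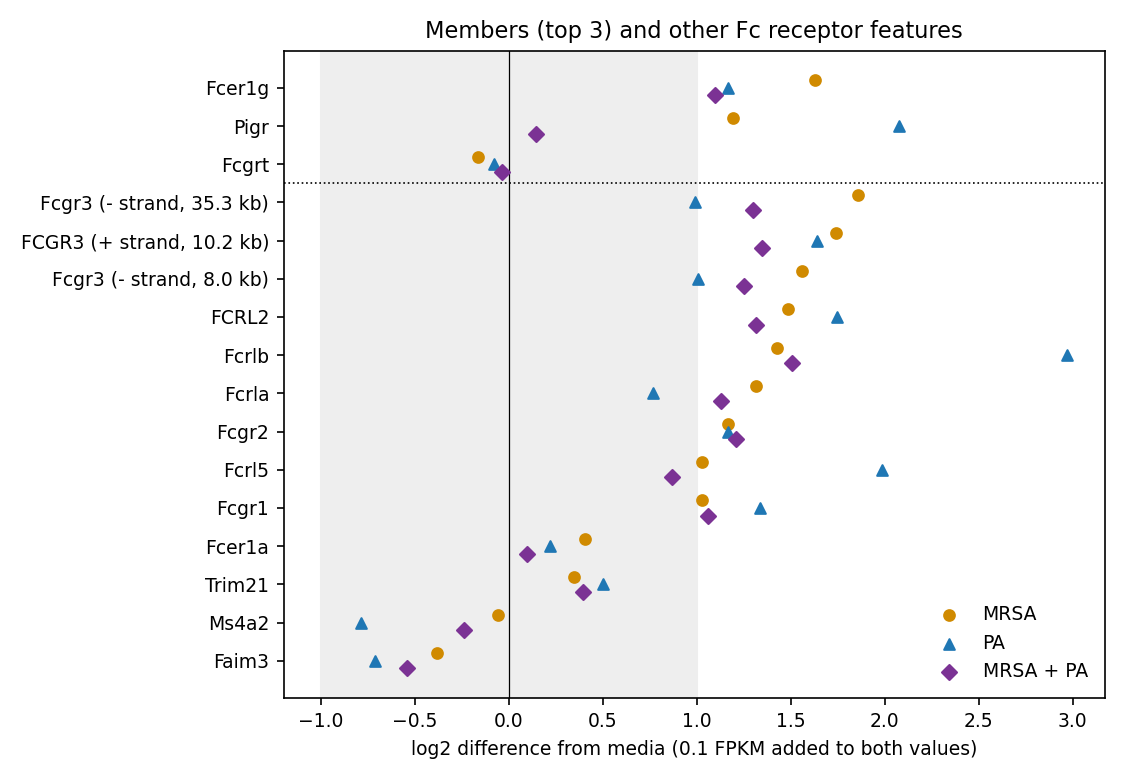
The horizontal axis is the log2 difference from media, with 0.1 FPKM added to both values, for the 3 members (above the dotted line) and for the other Fc receptor features that passed the filter, with 1 point for each inoculated library. The grey band spans 2-fold in either direction. Pigr lies at 0.14 in MRSA + PA and at 2.08 in PA, while Fcgr2 has its 3 points within 1.17 to 1.21.

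Downstream of the activating receptors, a list of 25 kinases, adaptors and effectors all passed the filter. At least 2-fold above media were 15 of 25 after MRSA, 14 after PA and 14 after MRSA + PA, beside 8.47%, 10.0% and 7.78% of all features. None was 2-fold lower, and the medians of the log2 differences were 1.14, 1.03 and 1.08. Tyrobp (DAP12), an adaptor with an activation motif like that of Fcer1g, was at 207 FPKM in media, 541 after MRSA, 365 after PA and 552 after MRSA + PA. Unlike Fcer1g, its level in MRSA + PA was close to that in MRSA. Cd247, the zeta chain that serves T cell receptors and FCGR3A of NK cells, had the largest difference of the list. It was at 3.12, 18.1, 13.9 and 18.1 FPKM, with log2 differences from media of 2.49, 2.12 and 2.50.

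Rac2, the leukocyte GTPase of phagocytosis and oxidase assembly, was at 61.6, 134, 116 and 130 FPKM (media, then MRSA, PA and MRSA + PA). Lcp2 (SLP-76), an adaptor, was at 40.1, 54.0, 57.9 and 60.9 FPKM, within 2-fold of media. Fgr, a Src-family kinase of myeloid cells, was at 7.78, 32.1, 34.7 and 30.6 FPKM, and its log2 differences of 2.03, 2.14 and 1.96 were nearly level across the inocula. Between inoculated libraries no gene of the list was 2-fold apart except Lat2, an adaptor named after its values were seen, at 48.2 FPKM in MRSA + PA and 23.2 in PA.

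The inhibitory list held 12 genes, of which 11 passed the filter. At least 2-fold above media were 6 of 11 after MRSA, 4 after PA and 5 after MRSA + PA, beside 8.47%, 10.0% and 7.78% of all features. None was 2-fold lower, and the medians were 1.00, 0.87 and 0.90. Sirpa, an inhibitory receptor of macrophages, was at 45.1, 83.1, 82.4 and 71.97 FPKM (media, then MRSA, PA and MRSA + PA). The phosphatase Ptpn6 (SHP-1), which inhibitory receptors recruit, was at 27.9, 60.1, 49.3 and 59.5 FPKM. Ptpn11 (SHP-2), a phosphatase found in most cells, was at 35.4, 33.8, 33.5 and 30.7 FPKM, close to media throughout. Pilra, an inhibitory receptor of myeloid cells, was at 3.46, 14.3, 18.4 and 13.5 FPKM. Dok2, an adaptor that dampens signalling in leukocytes, was at 6.07, 25.7, 22.5 and 22.0 FPKM. Of these 5 genes, Pilra and Dok2 stood at least 2-fold above media after every inoculum, Ptpn6 after MRSA and MRSA + PA, and Sirpa and Ptpn11 after none.

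Genes of antibody transport and recycling formed a list of 22. Of these, 21 were in the table and all 21 passed the filter. At least 2-fold above media were 2 of 21 after MRSA, 1 after PA and 2 after MRSA + PA, close to or below the shares of all features (8.47%, 10.0% and 7.78%), none was lower, and the medians were 0.14, 0.36 and 0.22. B2m, the partner chain of Fcgrt and of class I histocompatibility molecules, was at 1772 FPKM in media, 4739 after MRSA, 3479 after PA and 4447 after MRSA + PA. Igj, the J chain that PIGR recognises in IgA and IgM, was at 30.2, 229, 101 and 122 FPKM. These 2 genes make up the counts, Igj alone in PA. Rab7a, a GTPase of late endosomes, was at 281, 320, 306 and 323 FPKM.

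Fcgrt and its partner chain thus differed in pattern. The ratio of Fcgrt to B2m was 0.0643 in media, 0.0215 after MRSA, 0.0310 after PA and 0.0249 after MRSA + PA, which is 0.334, 0.482 and 0.388 of the media value. Pigr and the J chain differed as well. Pigr over Igj was 0.274 in media, 0.0833 after MRSA, 0.350 after PA and 0.0752 after MRSA + PA. PA lay 1.28-fold above media on this ratio, and MRSA and MRSA + PA were at 0.304 and 0.275 of it.

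Cytokines, receptors and transcription factors that are known to act on PIGR expression formed a list of 25 genes, of which 21 passed the filter. At least 2-fold above media were 2 of 21 after MRSA, 3 after PA and 1 after MRSA + PA, near the shares of all features (8.47%, 10.0% and 7.78%). None was 2-fold lower, and the medians were 0.44, 0.53 and 0.56. Il17a, a cytokine that raises PIGR in airway epithelium, was at 1.69 FPKM in media, 8.49 after MRSA, 8.58 after PA and 5.07 after MRSA + PA. Tnfrsf1b, a TNF receptor, was at 8.83, 21.2, 23.9 and 17.0 FPKM. The third gene counted in PA was Il17ra, the IL-17 receptor, at 16.4 FPKM in media and 37.7 in PA, which was named after its values were seen. The abundant receptors Ifngr1 and Il13ra1 were within 2-fold of media. Ifngr1 was at 77.3, 122, 111 and 112 FPKM and Il13ra1 at 60.2, 67.9, 79.3 and 81.6 FPKM. None of the 21 genes past the filter was 2-fold apart between any 2 inoculated libraries, beside 1.61% to 5.73% of all features in each direction. The cytokines Ifng, Il4, Il13 and Il17f were below 1 FPKM on average and so were not counted. The part of these genes in the level of Pigr was not tested. The E-box factors, named after their values were seen, were at 28.9 to 32.5 FPKM for USF1 and 38.9 to 48.0 FPKM for Usf2.

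**Figure D3:**
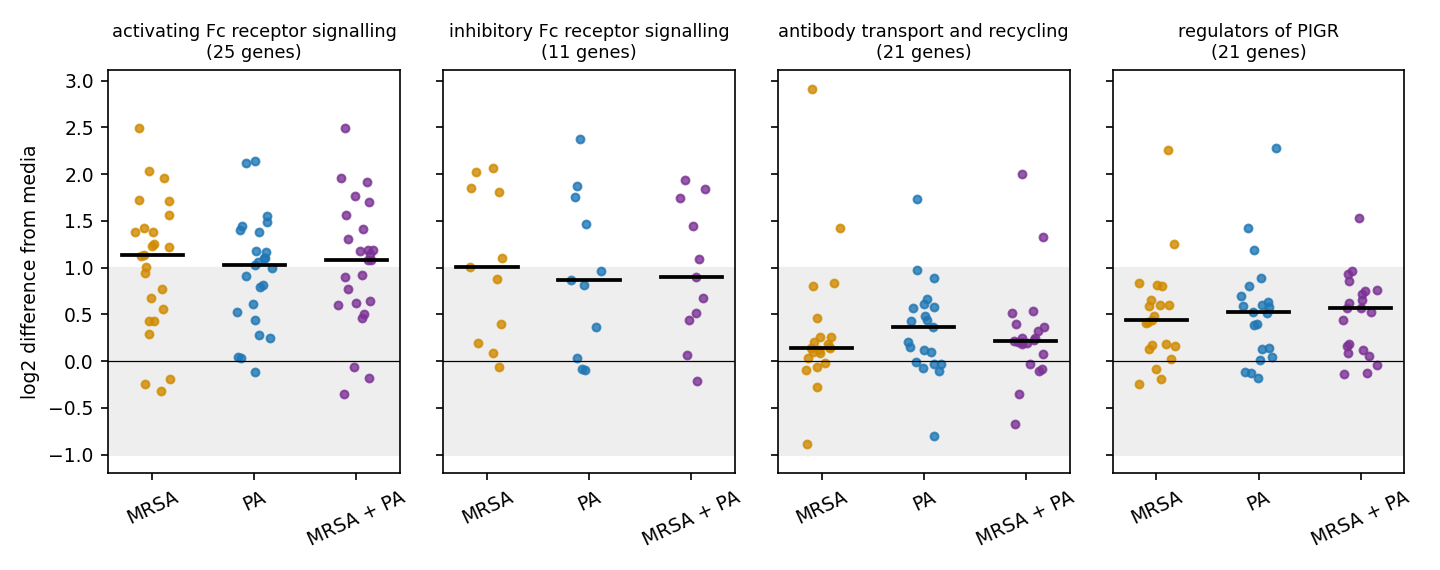
Each point is the log2 difference from media (vertical axis, 0.1 FPKM added to both values) of 1 gene that passed the filter, in 4 panels for the activating, inhibitory, transport and PIGR regulator lists, with 1 column for each inoculated library. Bars mark medians, the grey band spans 2-fold, and points are spread sideways only for legibility. The medians of the activating list lie at 1.03 to 1.14 and those of the transport list at 0.14 to 0.36.

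Markers of the cell types that carry these receptors also differed between the libraries, and their part in the results was not tested. The pan-leukocyte gene Ptprc (CD45) was at 18.7 FPKM in media, 61.3 after MRSA, 64.3 after PA and 56.9 after MRSA + PA. Of 13 macrophage and monocyte markers past the filter, of 16 listed, 9 were 2-fold higher after MRSA, 6 after PA and 7 after MRSA + PA. Their summed level was 2237 FPKM in media, 12792 after MRSA, 9377 after PA and 11994 after MRSA + PA, most of it from Lyz1. Adgre1, listed as Emr1 and known as F4/80, was at 19.7, 112, 74.3 and 77.0 FPKM, with MRSA highest as for Fcer1g. Ctss, a lysosomal protease of antigen-presenting cells, was at 111, 296, 257 and 247 FPKM, and Aif1 at 163, 361, 269 and 285 FPKM. Other genes of the list, named after their values were seen except Csf1r, had another library highest. Mrc1 was at 35.0, 56.97, 67.0 and 47.6 FPKM, Msr1 at 6.34, 22.6, 26.8 and 18.1 FPKM and Cd163 at 5.93, 6.47, 12.7 and 5.77 FPKM, all highest in PA. Csf1r, at 83.8, 139, 149 and 151 FPKM, and Clec7a, at 39.0, 123, 113 and 131 FPKM, were highest in MRSA + PA. Marco was listed at 0 in media, MRSA and PA, and CD68 and CCR2 had no feature of that name.

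Neutrophil markers differed from one another. Of 13 past the filter, of 14 listed, 5 were 2-fold higher in each inoculated library, and Mpo, named after its values were seen, was 2-fold lower in PA. Their sums were 453, 803, 775 and 753 FPKM (media, then MRSA, PA and MRSA + PA). Csf3r, the G-CSF receptor, was at 2.25, 9.04, 30.4 and 10.1 FPKM and Cxcr2, a chemokine receptor, at 1.37, 4.35, 15.2 and 5.89 FPKM. Both were highest in PA, unlike Fcer1g. S100a8 was at 196, 277, 287 and 306 FPKM. Of 9 NK cell markers past the filter, of 10 listed, 8 were 2-fold higher after MRSA, 1 after PA and 9 after MRSA + PA, Nkg7 was 2-fold lower after PA, and their sums were 38.4, 119, 42.0 and 132 FPKM. Mast cell markers, 8 past the filter of 9 listed, summed to 42.8, 50.3, 48.7 and 36.0 FPKM, with 0, 1 and 0 of them 2-fold higher and 0, 1 and 0 lower. B cell and plasma cell markers, 9 past the filter of 12 listed, summed to 186, 257, 332 and 318 FPKM, most of it from Sdc1, which epithelium also expresses, and 6, 4 and 4 were 2-fold higher.

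Relative to leukocyte markers, the direction for Fcer1g depended on the marker. Fcer1g over Ptprc was 9.73 in media, 9.19 after MRSA, 6.36 after PA and 6.85 after MRSA + PA, so each inoculated library lay below media, at 0.944, 0.654 and 0.704 of it. Over Adgre1 the ratio was 9.24 in media and 5.03, 5.51 and 5.06 in MRSA, PA and MRSA + PA. Over Csf1r, the receptor for macrophage colony-stimulating factor, it was 1.86-fold, 1.26-fold and 1.18-fold above media, and over Aif1 1.39-fold, 1.36-fold and 1.22-fold above. None of these 4 ratios was 2-fold apart from media in any library, and the part of leukocyte number in the level of Fcer1g was not tested. The last 3 denominators were chosen after the data were seen, because CD68 had no feature.

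Epithelial markers were set beside Pigr, which epithelium expresses. Epcam, a surface marker of epithelium, was at 237, 266, 254 and 222 FPKM (media, then MRSA, PA and MRSA + PA), so the labelled mucosa held epithelium in every library. Endothelial markers summed to 158 to 189 FPKM with none of 10 markers 2-fold apart from media. All 12 epithelial markers passed the filter, and 0 were 2-fold higher after MRSA, 2 after PA and 1 after MRSA + PA. Their sums were 820, 840, 977 and 842 FPKM, with PA highest as for Pigr. Krt8, a keratin of simple epithelium, was at 76.1, 96.2, 111 and 103 FPKM. The largest differences in the list were those of the cadherins, with Cdh1 at 38.6, 57.3, 99.4 and 64.9 FPKM and Cdh3 at 9.10, 15.0, 29.7 and 21.8 FPKM.

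Pigr over Epcam was 0.0349 in media, 0.0716 after MRSA, 0.139 after PA and 0.0412 after MRSA + PA. Relative to media this was 2.05-fold, 3.98-fold and 1.18-fold, close to the folds of Pigr itself. Over Krt18 the folds were 2.32, 3.96 and 1.01, and over Krt8 they were 1.82, 2.93 and 0.818. Over Cdh1 they were 1.55, 1.65 and 0.658. PA was the highest library and MRSA + PA the lowest inoculated library for all 4 denominators, but with Cdh1 no fold over media reached 2 and PA was close to MRSA.

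Genes of secretory epithelium stood in a similar order to Pigr in part, and whether they share a source was not tested. Of 11 past the filter, of 12 listed, 3 were 2-fold higher than media after MRSA, 5 after PA and 1 after MRSA + PA, while 2, 1 and 1 were lower. Between MRSA + PA and PA, 8 of 11 were 2-fold lower in MRSA + PA, with a median log2 difference of -1.41, where Pigr was at -1.93. MUC5B, a gel-forming mucin, was at 8.82 FPKM in media, 16.5 after MRSA, 86.1 after PA and 5.40 after MRSA + PA. Like Pigr, it was highest in PA and was near or below media in MRSA + PA. MUC4, at 2.64, 5.19, 18.3 and 3.82 FPKM, and MUC5AC, at 0.551, 2.07, 4.55 and 0.847 FPKM, had the order of Pigr and were named after their values were seen. Wfdc2, at 542, 642, 800 and 537 FPKM, had the order of MUC5B. Scgb1a1 and Bpifa1 had other orders. Scgb1a1, the club cell secretory protein, was at 248, 807, 1537 and 1000.01 FPKM. Bpifa1, an antimicrobial protein of airway epithelium, was highest in media, at 25725 FPKM against 11118, 7472 and 13362, and its level dominated the sums of the list, 26588, 12658, 10025 and 14951 FPKM. Scgb3a1 was at 2.90, 0, 1.41 and 0.558 FPKM, and Ltf was listed at 0 except in PA, at 0.031 FPKM.

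**Figure D4:**
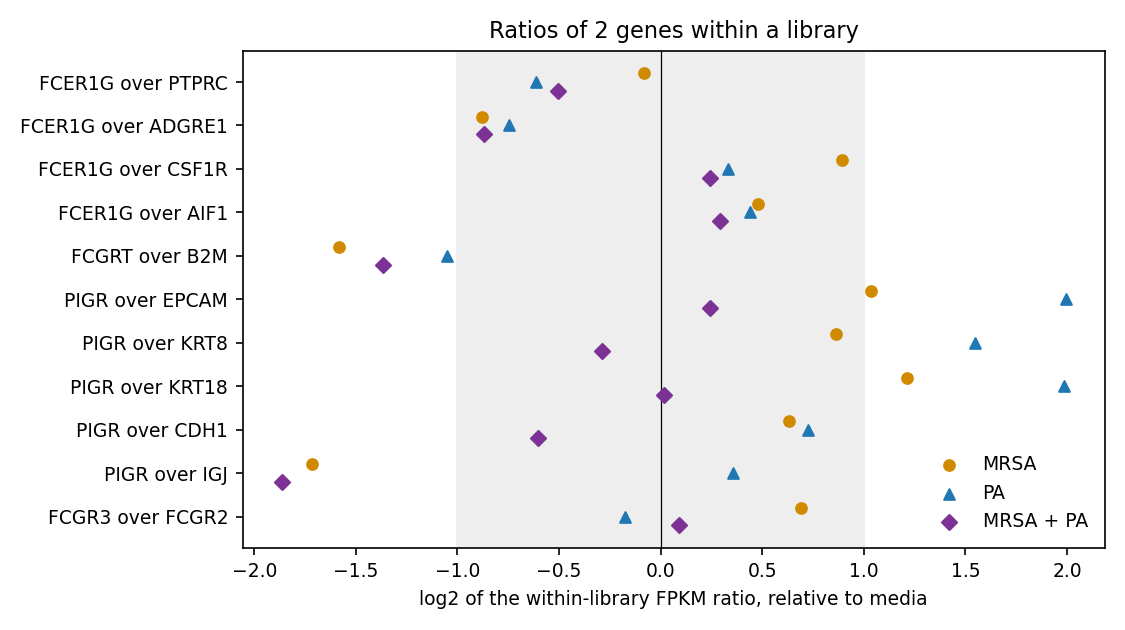
The horizontal axis is the log2 of a ratio of 2 genes within a library, relative to the same ratio in media, with 1 point for each inoculated library and a grey band spanning 2-fold. Fcgrt over B2m lies below media in all 3 libraries, at -1.58, -1.05 and -1.37, and Pigr over Epcam lies at 1.04 after MRSA, 1.99 after PA and 0.24 after MRSA + PA.

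The features whose 3 differences from media were nearest to those of each member were looked up among the 10857 named features that averaged 5 FPKM or more. The measure was the Euclidean distance over the 3 log2 differences, and all 3 share the media library. For Fcer1g the nearest were Ctsd, the lysosomal protease cathepsin D, at a distance of 0.110, the class I histocompatibility feature HA12_RAT at 0.124 and Cd200r1, an inhibitory receptor of myeloid cells, at 0.170. Ctsd was at 230, 733, 543 and 517 FPKM (media, then MRSA, PA and MRSA + PA), and 125 features lay within a distance of 0.5 of Fcer1g. For Fcgrt the nearest were Wwp2 at 0.0173, Exosc10 at 0.0208 and Morf4l1 at 0.0294, with 4671 features within 0.5. For Pigr the nearest lay further away. They were Mx3, an interferon-induced GTPase, at 0.334, the immunoglobulin heavy-chain feature HV202_HUMAN at 0.338 and Iapp at 0.365, and only 4 features lay within 0.5. Mx3 was at 5.28 FPKM in media, 13.9 after MRSA, 21.3 after PA and 7.06 after MRSA + PA, and so stood in the same order as Pigr.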

How the data were processed

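The authors prepared poly(A) libraries with the TruSeq RNA kit, sequenced them on a HiSeq2500, mapped reads with STAR 2.3.0e and quantified them with Cufflinks 2.1.1, the versions named in the submitters' processing notes, which also name edgeR. The deposited expression table gives FPKM as computed by the authors. Its features lie on rat chromosomes, while a human reference is named in the methods. No build is named in the tables, so file coordinates are given without one. The 3 deposited comparison tables hold the authors' fold changes and p-values of 1 library against 1 library and were not used, nor were their 12 per-library columns.

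From the FPKM values, log2 differences (0.1 FPKM added), within-library ratios and counts at 2-fold were computed for all 6 pairs of libraries with Python 3.11.15, numpy 2.4.6 and pandas 2.3.3, and drawn with matplotlib 3.10.9. The arithmetic was tested on simulated data. The 13 gene lists held 199 genes, of which 190 had a feature and 174 passed the filter, and a gene with several features was taken by its highest mean. Named genes were the members, in each list the 3 most abundant genes and the 2 furthest from media, the genes of the ratios, and the 3 nearest patterns for each member. Of the marker lists, genes are printed where they stand beside a member's result, and 1 gene that the rule selects is not reported here. The planned ratios with FCGR2B, for which no feature carries that name, were made with Fcgr2. The members and lists were chosen with earlier results of these data known. The alternatives were 1 or 0.01 FPKM added, 3 other scalings, no filter on low values or an average of 5 FPKM or more, thresholds of 1.5-fold and 3-fold, and summed features of a symbol. Features of at least 300 bp and the macrophage denominators were added after the data were seen. Promoters and older gene names came from RefSeq (GRCr8), which held promoters for 4 of the 7 symbols. Fcer1g was not among them. The paper gives a range of raw reads per sample, but FPKM does not give the fragments behind each value, so no precision was computed.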

Additional observations from a re-analysis of the deposited data

How the results depend on the processing

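No paired analysis was possible because each condition has 1 library, and for the same reason no replicate could be left out. Of the counts and ratios that answer a comparison, 15 values under alternatives left their side of the threshold or their size. A count within 1.5-fold of its first value was taken to keep its size, so smaller changes are not among the 15. For example, other Fc receptors in MRSA numbered 5 in place of 7 with 1 FPKM added and under median-of-ratios scaling. In MRSA + PA they numbered 4 in place of 6 with 1 FPKM added. Ratios within a library are untouched by rescaling. With libraries rescaled to equal FPKM sums over all features, members 2-fold above media in MRSA numbered 1 in place of 2 (Pigr at 0.93 on the log2 scale), other Fc receptors 4 in place of 7, members lower in MRSA than in PA 1 in place of 0, and members lower in MRSA + PA than in MRSA 0 in place of 1. With 1 FPKM added, that last count was again 0, and Pigr over Epcam in MRSA was at 0.95 in place of 1.04. At a mean of at least 5 FPKM, 3 other Fc receptors passed in PA in place of 5. At 1.5-fold, 1 member was lower in MRSA than in PA. At 3-fold, members above media numbered 1, 1 and 0 in MRSA, PA and MRSA + PA, other Fc receptors 1, 3 and 0, and 0 members were lower in MRSA + PA than in MRSA. The different counts at other thresholds follow from the threshold and those at the higher mean from fewer features. For the rescaled values the cause was not tested. Under equal FPKM sums over all features, log2 differences from media in MRSA were 0.93 for Pigr, 0.76 for Fcgr1 and 0.90 for Fcgr2. With the sums taken over features of at least 300 bp instead, they were 1.25, 1.08 and 1.22. Median-of-ratios scaling gave 1.14, 0.97 and 1.11 in that order. Over the alternatives Pigr ranged from 0.93 to 1.25 in MRSA, from 1.97 to 2.24 in PA and from 0.09 to 0.32 in MRSA + PA, and Fcer1g from 1.36 to 1.68, from 1.10 to 1.34 and from 1.04 to 1.28. The small differences between inoculated libraries turned sign with scaling for Fcer1g in MRSA + PA minus PA (-0.20 to 0.13), for Fcgr2 in MRSA minus PA (-0.24 to 0.01), and for Fcgr2 and Fcgrt in MRSA + PA minus PA (each -0.09 to 0.24). Fcgr3 in PA ranged from 0.92 to 1.16 and so lay on either side of 2-fold.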
